A study of Bos taurus with 18 samples.

Results

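In all, 38 genes met a rule that asked for a strong rise during serum-based muscle differentiation and no rise in the serum-free medium SFDM. They are 38 of 27607 gene identifiers in the count table and 38 of the 14637 that were tested. Levels are in CPM, the reads of a gene per 1000000 reads assigned to genes in that library. The rule required mean levels of 1 CPM or more in GM and 10 CPM or more in DM, a DM mean at least 4 times the GM mean, and an SFDM mean not above the SFGM mean. The GM and DM limits alone were met by 489 genes, and the other 451 of these had a higher mean in SFDM than in SFGM. The members were therefore chosen on values in GM, DM, SFGM and SFDM, and their values there describe the choice. The SFB and DMEM libraries did not enter it.

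The cells were satellite cells of Belgian Blue cattle, sampled as poly(A) RNA in 6 groups of 3 libraries labelled A, B and C. At 0 h the cells were growing either in GM, a growth medium with 20% fetal bovine serum (FBS), or in SFGM, a serum-free growth medium. The GM cells were then differentiated for 72 h in DM with 2% FBS. Cells from SFGM had been moved for the same time to a serum-free base medium (SFB), to a differentiation medium without serum whose base was DMEM/F-12 (SFDM), or to its version with a DMEM base (the DMEM group). SFGM cells at 72 h were not analysed here, so medium and time in culture cannot be told apart in comparisons with SFGM. The labels call the letters biological triplicates and do not state whether a letter stands for an animal, a culture or a day. The p-values therefore weigh differences between groups only against how much these libraries vary, which may be technical.

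Satellite cells are the resident stem cells of skeletal muscle. In culture they divide in rich medium, and after serum is lowered they leave the cell cycle, switch on muscle genes and fuse into myotubes. Serum carries growth factors, hormones and lipids, so its withdrawal changes signalling and nutrient supply together. DMEM/F-12 is a mixture of DMEM with Ham's F-12, a nutrient mix with more trace components than DMEM alone, so the SFDM and DMEM groups differ in the base that carries the supplements.

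The identifiers in the table could not be paired with gene symbols here. The members are therefore described by their levels, 4 of them by identifier, chosen by their ratios, and others by their rank in mean DM level, from 1 (highest) to 38. Members given by rank were picked after their values were seen. For the same reason muscle markers and markers of other cell types were not analysed here, and a change in the cells present cannot be told apart from a change in RNA per cell. Libraries held 16162525 to 28589018 counts. All 38 members passed the expression filter. The lowest GM library of any member held 23 reads, and the lowest count of any member in any library was 5. Replicate C stood apart in SFB, where counts of C differed from those of A and B by chi-square values of 40.4 and 41.6 per degree of freedom, against 2.68 between A and B. In every other group, too, C differed more from A and from B than A and B did from each other. In DM the values were 22.8 and 32.5, against 5.53 between A and B. In DMEM the value for A and C was 41.9.

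The 38 genes differed in their SFGM level relative to DM, and 26 of them had a DMEM mean of at least 0.5 times DM. The most abundant member had 653, 652 and 617 CPM in the GM libraries and 6237, 5815 and 5553 in DM. In SFGM it had 953, 950 and 879 CPM, in SFDM 507, 483 and 499, and in SFB 769.5, 750.5 and 795. In DMEM it had 4998, 5132 and 5383 CPM. The DM and DMEM libraries formed a high range and the other 12 libraries a low range, with no overlap, and DMEM lay just below DM. DMEM was 6.49-fold above SFB for this gene (log2 fold change 2.698, SE 0.054, edgeR adjusted p = 2.42e-15), and all 3 DMEM libraries were above all 3 SFB libraries.

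ENSBTAG00000011839 had the largest rise from GM to DM, from a mean of 45.5 ± 0.668 CPM to 1102 ± 152 (SD, n = 3), a ratio of 24.2. Its libraries read 45.9, 45.9 and 44.7 CPM in GM and 1119, 1245 and 942 in DM. Its SFGM libraries, at 1272, 1278 and 1196 CPM, were already at the DM range before any differentiation. In SFDM it had 475, 502 and 561 CPM, and in SFB 553, 571 and 473. In DMEM it had 1474, 1689 and 1837 CPM, above every library of the other 5 groups. Against SFB, DMEM was 3.03-fold higher (log2 fold change 1.60, SE 0.098, edgeR adjusted p = 1.09e-09). Against SFGM it rose 1.40-fold in DMEM (edgeR adjusted p = 0.000299) and fell 2.16-fold in SFB (edgeR adjusted p = 4.17e-08), with no overlap of libraries in either comparison.

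ENSBTAG00000004075, with the next largest rise, went from 11.6, 12.3 and 10.2 CPM in GM to 275, 313 and 217 in DM, a ratio of means of 23.6. Its SFGM libraries had 175, 173 and 157 CPM and its SFDM libraries 69.3, 87.1 and 93.8. It had 109, 114 and 87.1 CPM in SFB and 160, 184 and 205 in DMEM. DM was highest without overlap, and DMEM overlapped SFGM. DMEM was 1.72-fold above SFB (edgeR adjusted p = 0.000189, all 3 libraries higher). Its difference between DMEM and SFGM did not pass the test (log2 fold change 0.19, SE 0.134, edgeR adjusted p = 0.220).

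ENSBTAG00000015402 had the lowest SFDM level relative to SFGM, a ratio of 0.138. It rested on few reads in SFDM and SFB, with 5 in its shallowest library, SFDM A. It had 4.42, 5.69 and 7.57 CPM in GM and 50.1, 54.4 and 60.5 in DM. The SFGM libraries had 3.02, 2.97 and 4.74 CPM, the SFDM libraries 0.309, 0.430 and 0.739, and the SFB libraries 0.854, 0.774 and 0.899. DMEM, at 5.38, 6.62 and 5.32 CPM, returned to the GM range and stayed 9.53-fold below DM on the means. This gene was 1 of 2 members with a lower mean in SFGM than in GM. In DMEM it was 6.60-fold above SFB (log2 fold change 2.72, SE 0.257, edgeR adjusted p = 2.3e-07) and 1.70-fold above SFGM (edgeR adjusted p = 0.00398), in both cases with all 3 libraries higher.

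ENSBTAG00000019964, with the next lowest SFDM to SFGM ratio at 0.273, had 2.55, 2.79 and 2.82 CPM in GM and 22.9, 20.6 and 30.9 in DM. It stood at 8.10, 9.06 and 10.8 CPM in SFGM, 3.09, 2.40 and 2.13 in SFDM, and 3.54, 3.54 and 5.51 in SFB. In DMEM it had 8.55, 7.10 and 5.37 CPM, overlapping both SFGM and SFB. DM was the highest group by more than the spread, and SFDM overlapped GM. The test put DMEM 1.62-fold above SFB (edgeR adjusted p = 0.0167). That call was lost without DMEM A (adjusted p = 0.0962), without SFB A (0.0754), without SFB B (0.0753) or with only the compared groups fitted (0.0749), all from edgeR.

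**Figure D1:**
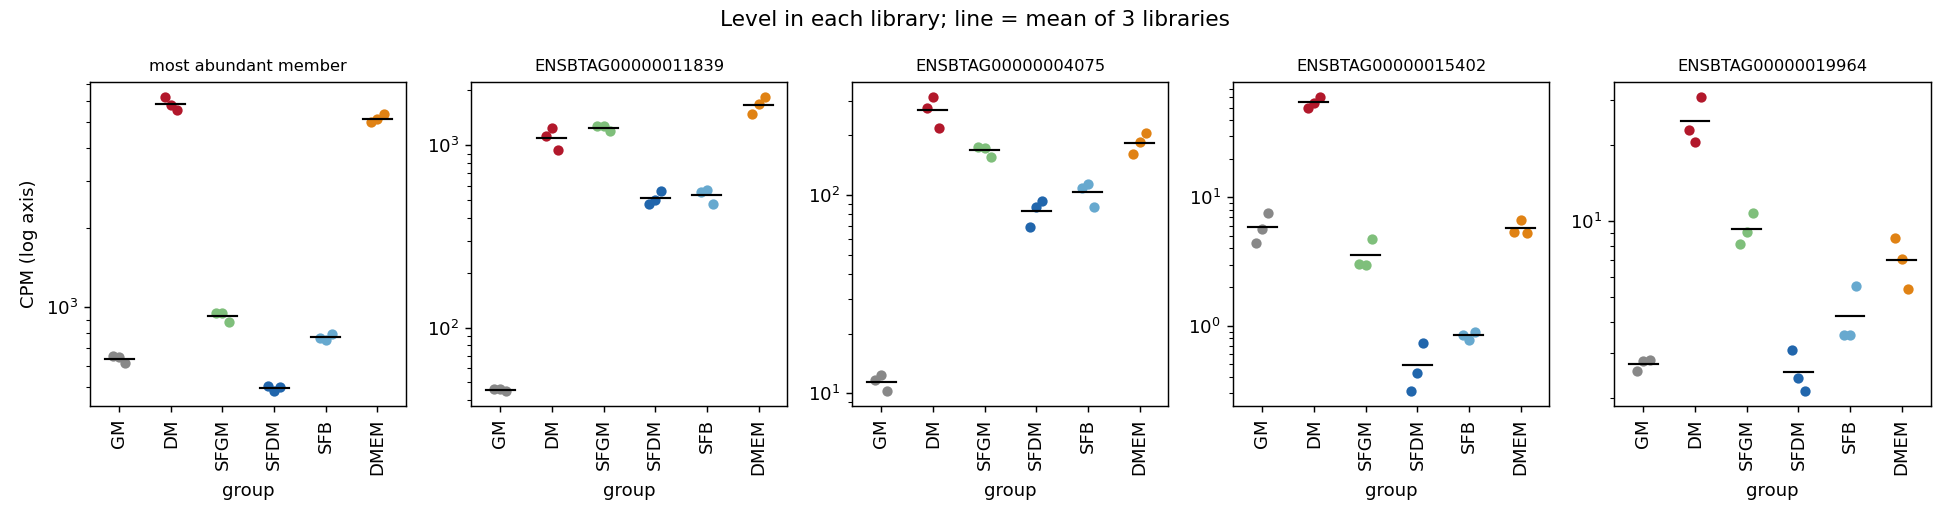
CPM on a log axis (scaled separately in each panel) in every library of the 6 groups for the most abundant member and the 4 identifiers chosen by rule; points are libraries and lines are means of 3. In the panel of the most abundant member DM and DMEM stand together above the rest, while in that of ENSBTAG00000015402 DMEM (5.77 CPM on average) lies near GM (5.90).

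Across the 38 members the DM to GM ratio of means ran from 4.06 to 24.2 with a median of 7.42, and the SFDM to SFGM ratio from 0.138 to 0.994 with a median of 0.5004. All 3 DM libraries lay above all 3 GM libraries for each of the 38 members, as they did for 31.1% of all tested genes, and 42.5% of tested genes lay the other way. All 3 SFDM libraries lay below all 3 SFGM libraries for 34 members, against 46.8% of tested genes, and 4 overlapped. These are the contrasts the rule used, and the counts describe the choice. SFDM was below GM for 13 members and at least 2 times GM for 19, so a flat or falling course from SFGM did not always mean a low level. Among all 489 genes with the DM and GM limits met, 38 (7.77%) had an SFDM mean not above SFGM, 47 (9.61%) an SFB mean not above SFGM, and 18 (3.68%) a DMEM mean not above SFGM. With the roles exchanged, 349 genes met the same limits in SFDM against SFGM, and 17 of these (4.87%) had a DM mean not above GM.

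Just inside and outside each limit the values were close together for all limits but the GM floor. The lowest DM to GM ratio among members was 4.06, and the nearest gene left out by it had 3.99. The lowest DM mean was 11.8 CPM, against 9.69 for the nearest gene below the limit. The highest SFDM to SFGM ratio was 0.994, against 1.02 for the nearest gene above it. The lowest GM mean of a member was 1.07 CPM. The nearest gene left out by the floor in GM had 0.111 CPM in GM, 14.8 in DM and at most 0.369 on average in any serum-free group.

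Level in SFGM separated the members into a part that was already near its DM level in serum-free growth medium and a part that was not. A mean in SFGM of at least 0.5 times the DM mean was found in 17 members, and the other 21 were below that. The split was made after the values were seen and has no gap, since the nearest members on either side had ratios of 0.502 and 0.482. The rule itself favours genes with a high SFGM level. Over all 38 members SFGM was at least 2 times GM in 26 (68.4%), compared with 144 of the 451 other genes that met the DM and GM limits (31.9%) and 9.17% of all tested genes. A higher mean in SFGM than in DM was found in 6 members. The largest such excess was at rank 13, with 324, 325 and 344 CPM in SFGM against 127, 126 and 140 in DM.

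The 17 members with high SFGM levels had SFGM means 2.44 to 27.4 times their GM means, with a median of 7.22. Their median levels were 21.1 CPM in GM, 168.2 in DM, 168.1 in SFGM, 92.0 in SFDM, 87.3 in SFB and 189.9 in DMEM. In SFDM, 15 of the 17 still stood at 2 or more times GM. DMEM reached at least the DM mean in 11 of them and at least 0.5 times DM in 16. Their summed level was 376 ± 8.99 CPM in GM, 3821 ± 358 in DM, 3809 ± 79.3 in SFGM and 4729 ± 338 in DMEM (SD, n = 3). In SFDM and SFB the sums were 1783 ± 98.3 and 1932 ± 113 CPM. GM was thus far below every other group for these genes, and SFDM and SFB lay between GM and the remaining groups without overlap.

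The other 21 members had SFGM means of 0.0650 to 0.482 times their DM means. Their median levels were 7.93 CPM in GM, 44.1 in DM, 14.4 in SFGM, 7.16 in SFDM, 10.2 in SFB and 18.3 in DMEM. In SFDM, 4 of the 21 stood at 2 or more times GM. DMEM reached the DM mean in 5 and at least 0.5 times DM in 10. The most abundant member belongs here. Without it the summed level of the other 20 was 186 ± 6.50 CPM in GM, 1310 ± 36.2 in DM, 463 ± 6.09 in SFGM, 275 ± 6.97 in SFDM, 338 ± 14.6 in SFB and 1262 ± 78.4 in DMEM (SD, n = 3). The DM and DMEM sums overlapped, and both were above all other libraries. Rank 7 alone held 625 CPM of the DMEM sum and 311 of the DM sum on average. The median DMEM level of the 21 members was 0.453 times DM.

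**Figure D2:**
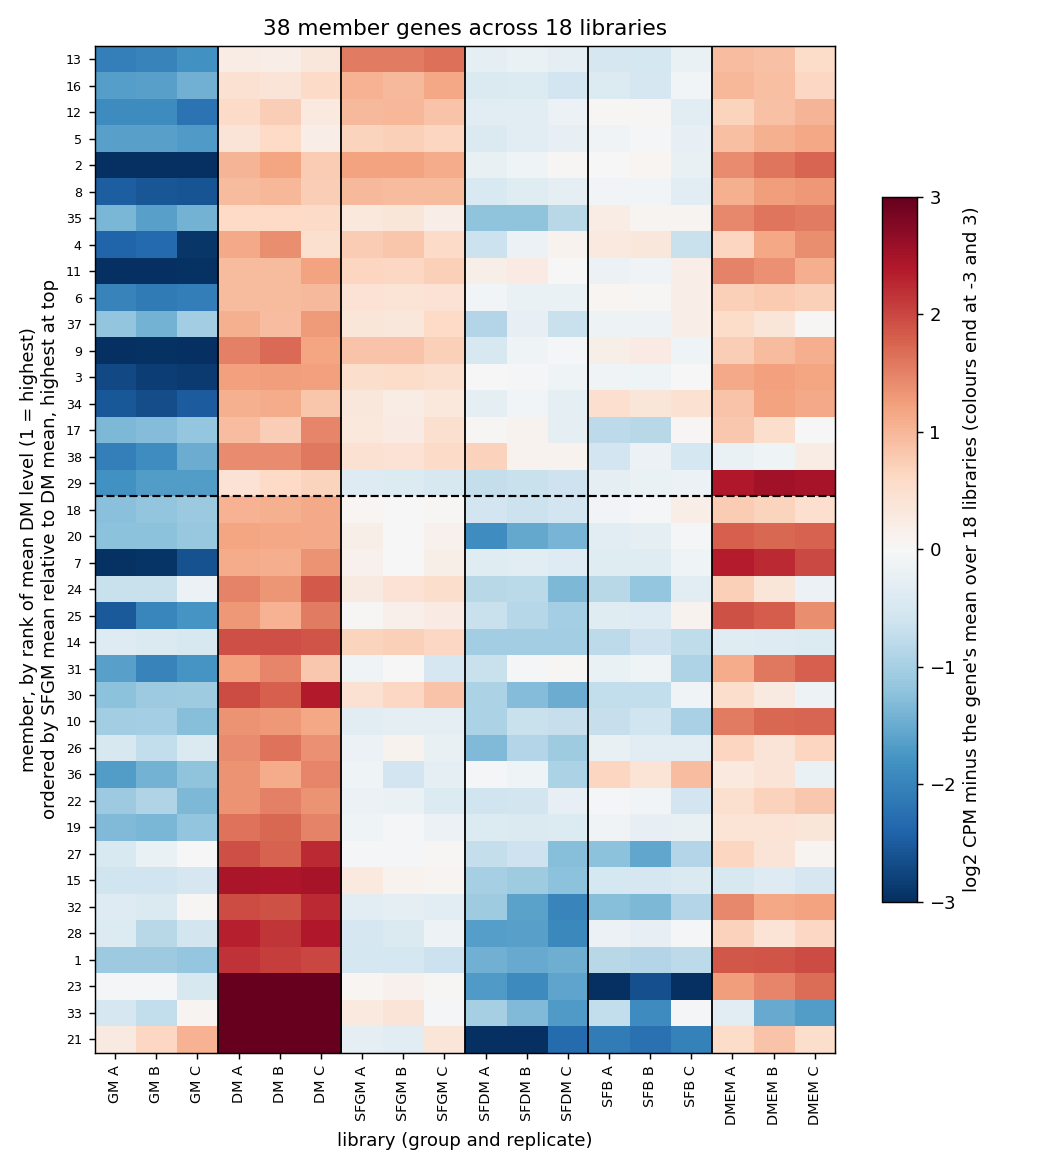
Log2 CPM of the 38 members (rows, labelled by rank in DM level) in 18 libraries (columns), each row centred on its own mean; rows run from the highest to the lowest SFGM level relative to DM, and the dashed line marks a ratio of 0.5. The 17 rows above the line are low in GM and raised in DM, and also in SFGM (except rank 29) and DMEM (except rank 38), whereas many rows below it are raised in DM and DMEM.

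DMEM and SFB, the pair of groups that the rule left out, differed for most members. Both groups came from the same SFGM cells and were sampled at 72 h. The labels do not state which base SFB has, so supplements and base cannot be told apart in comparisons with SFB. In DMEM 33 of the 38 members were higher than in SFB and 1 was lower, compared with 20.8% and 20.1% of all tested genes (edgeR quasi-likelihood test, adjusted p under 0.05). Of the 33, 20 were at least 2-fold higher, against 6.2% of tested genes, and 0 were at least 2-fold lower by edgeR, against 4.82%. The median log2 fold change was 1.09 over the members and -0.0015 over all tested genes. Among the 451 genes that met the DM and GM limits but had SFDM above SFGM, 199 (44.1%) were higher in DMEM and 96 (21.3%) lower, with a median of 0.22. Members lay close to SFDM in SFB, and the rule kept SFDM low, so the choice may favour this direction indirectly. All 3 DMEM libraries lay above all 3 SFB libraries for 31 members, against 24.4% of tested genes. Without SFB C, 33 members were higher, and without DMEM A 32 were.

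The difference was present on both sides of the split by SFGM level: 15 of the 17 members with high SFGM and 18 of the other 21 were higher in DMEM. The largest was at rank 23, which had 0.470, 0.651 and 0.391 CPM in SFB and 9.69, 11.1 and 13.0 in DMEM, 21.4-fold apart (log2 fold change 4.42, SE 0.220, edgeR adjusted p = 7.93e-11). Its DM libraries were higher still, at 48.1, 50.1 and 34.2 CPM. At rank 29 the DMEM libraries held 104.8, 112.8 and 108.9 CPM and the SFB libraries 16.1, 17.1 and 17.6, 6.23-fold apart (edgeR adjusted p = 1.01e-13). This member had only 26.7, 29.7 and 31.1 CPM in DM, so that DMEM was 3.73 times DM on the means. At rank 7 the values were 692, 643 and 540 CPM in DMEM, 106, 105 and 124 in SFB and 295.5, 289.8 and 347.6 in DM.

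The only member lower in DMEM than in SFB was at rank 36, with 6.63, 7.10 and 4.78 CPM in DMEM and 8.58, 7.25 and 10.3 in SFB (log2 fold change -0.54, edgeR adjusted p = 0.0437). That call was lost under several settings, among them no expression filter, only the compared groups fitted and scaling by totals, and without DMEM A, DMEM C, SFB A or SFB C. The 4 members at ranks 15, 33, 37 and 38 passed in neither direction. Rank 15 had nearly equal levels in both media, 13.9, 14.9 and 13.6 CPM in DMEM and 13.5, 13.6 and 14.4 in SFB (log2 fold change -0.02, SE 0.077), far below its 105.6, 103.8 and 107.4 in DM.

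**Figure D3:**
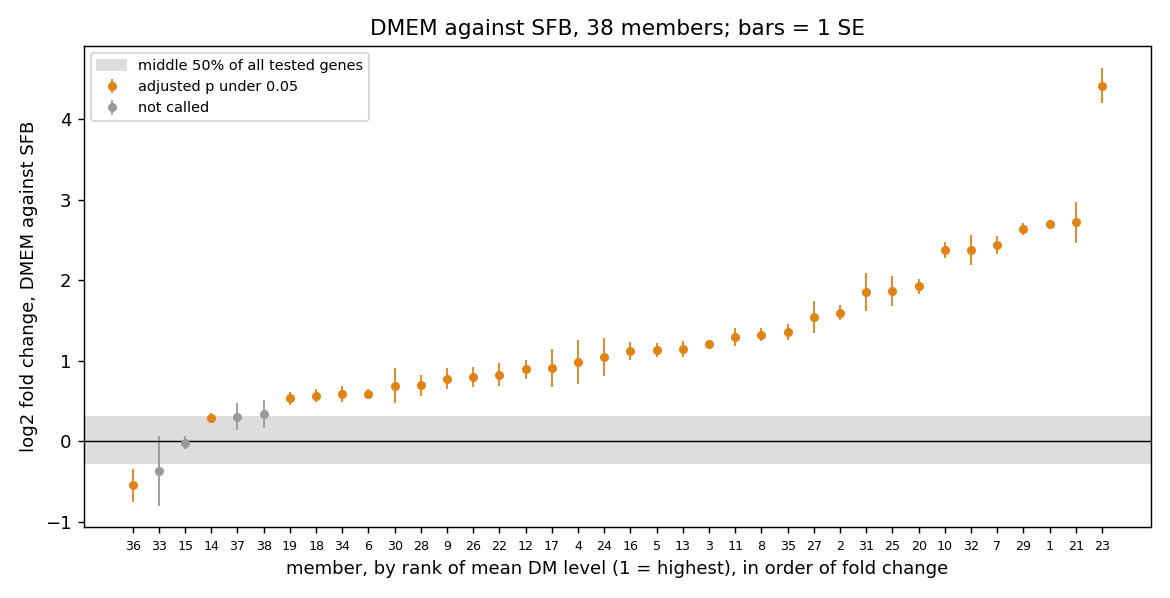
Log2 fold change of DMEM against SFB for each member in ascending order (horizontal axis, rank in DM level), with bars of 1 SE; orange points passed the edgeR test, and the grey band holds the middle 50% of all tested genes. Most points lie above the band, up to 4.42 at rank 23, and the lowest is -0.54 at rank 36.

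Against SFGM at 0 h, most members rose in DMEM. By the test, 25 of 38 were higher in DMEM (32.1% of all tested genes were) and 5 were lower (31.3% of tested genes). At least 2-fold higher were 11, against 14.0% of tested genes, and 1 was at least 2-fold lower, against 10.5%. The rule kept genes whose SFGM mean was not below SFDM, which favours high SFGM values and so falls from SFGM. Among the 451 genes that met the DM and GM limits with SFDM above SFGM, 435 (96.5%) were higher in DMEM and 1 lower, with a median log2 fold change of 1.92. They were chosen the opposite way on SFGM. The rises of members go against the name under which these genes were grouped, genes induced only by serum-based differentiation, and they are called members of the rule here. The 3 members at ranks 1, 7 and 29 met in DMEM against SFGM the same limits that the rule set for DM against GM. The median log2 fold change of the members was 0.57, with quartiles of 0.05 and 1.23. The 5 that fell, at ranks 13, 14, 15, 33 and 38, became 3 without DMEM B.

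In SFB, by contrast, members were mostly lower than in SFGM: 23 fell and 3 rose, compared with 29.9% and 28.6% of all tested genes (edgeR, adjusted p under 0.05). The rule favours this direction as well, as does naming ENSBTAG00000015402 and ENSBTAG00000019964 for low SFDM to SFGM ratios. Of the 451 genes chosen the opposite way on SFGM, 423 were higher in SFB and 5 lower, with a median log2 fold change of 1.66. Among the members 10 fell at least 2-fold, against 7.64% of tested genes, and 1 rose at least 2-fold, against 11.0%. The median log2 fold change was -0.55 over the members and -0.02 over all tested genes. Scaling by totals moved the median of all tested genes by -0.12 and that of the members to -0.66. All 3 SFB libraries lay below all 3 SFGM libraries for 26 members, against 40.3% of tested genes, and above them for 3, against 24.7%. ENSBTAG00000015402 fell 3.89-fold (edgeR adjusted p = 9.82e-06), ENSBTAG00000019964 fell 2.04-fold (edgeR adjusted p = 0.000565) and ENSBTAG00000004075 fell 1.502-fold (edgeR adjusted p = 0.00137), each with all 3 SFB libraries below all 3 SFGM libraries. The 3 that rose were at ranks 29, 34 and 36, and rank 36 rose most, from 4.96, 3.67 and 4.50 CPM in SFGM to 8.58, 7.25 and 10.3 in SFB (2.17-fold, edgeR adjusted p = 0.000247).

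On the DMEM base, members were higher than in the DMEM/F-12 medium SFDM. Here 34 of 38 were higher in DMEM and 0 lower, against 24.2% and 22.4% of tested genes by edgeR. At an unadjusted p under 0.05, 1 member was lower, and DESeq2 called 1 lower, as did edgeR without DMEM C, SFDM B or SFDM C. At least 2-fold higher were 28, against 6.42% of tested genes, and the median log2 fold change was 1.24. SFDM was kept low by the rule, which favours this direction. The 451 genes that met the DM and GM limits with SFDM above SFGM were chosen the opposite way, and 79 of these were higher in DMEM and 297 lower, with a median of -0.70. For the most abundant member the DMEM libraries were 9.93-fold above SFDM (log2 fold change 3.31, SE 0.055, edgeR adjusted p = 2.38e-16). For ENSBTAG00000015402 the difference was 10.9-fold (SE 0.291 on the log2 scale, edgeR adjusted p = 4.75e-08), for ENSBTAG00000011839 3.09-fold (edgeR adjusted p = 7.58e-10), for ENSBTAG00000019964 2.67-fold (edgeR adjusted p = 9.42e-05) and for ENSBTAG00000004075 2.09-fold (edgeR adjusted p = 6.78e-06). All 3 DMEM libraries were above all 3 SFDM libraries for each of these 5 genes. Of these, ENSBTAG00000015402 and ENSBTAG00000019964 were named for low SFDM to SFGM ratios, which favours larger differences from SFDM. The 4 members that did not pass were at ranks 17, 33, 36 and 38.

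SFB and SFDM lay closer to each other. Between them 15 members were higher in SFB and 2 lower, against 20.0% and 14.8% of tested genes, and 21 did not pass the edgeR test. At least 2-fold higher in SFB were 3, against 2.23% of tested genes, and 1 was at least 2-fold lower, against 4.63%. The median log2 fold change was 0.24 over the members and 0.04 over all tested genes, and the rule favours higher SFB values here. So does the choice of ENSBTAG00000015402 and ENSBTAG00000019964 by low SFDM to SFGM ratios, for these genes. The 2 lower members, at ranks 23 and 38, became 5 without SFB C. The most abundant member was 1.53-fold higher in SFB (edgeR adjusted p = 8e-08, all 3 libraries). ENSBTAG00000019964 was 1.65-fold higher (edgeR adjusted p = 0.0295), a call lost without SFB C (adjusted p = 0.139), SFDM B (0.0964) or SFDM C (0.0985) and with only the compared groups fitted (0.0701). ENSBTAG00000011839 had a log2 fold change of 0.03 (SE 0.096, edgeR adjusted p = 0.843), ENSBTAG00000004075 of 0.28 (SE 0.136, edgeR adjusted p = 0.124, which passed without SFB C at a log2 fold change of 0.39) and ENSBTAG00000015402 of 0.72 (SE 0.387, edgeR adjusted p = 0.166).

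Set against DM, the 3 serum-free media at 72 h reached different levels. SFDM and SFB means were below DM for all 38 members, without overlap of libraries, where 26.4% and 25.3% of tested genes were so placed and 29.6% had all SFB libraries above DM. The median SFDM level was 0.312 times DM and the median SFB level 0.356 times DM. The DMEM mean was at least that of DM in 16 members and at least 0.5 times DM in 26, and the median ratio was 0.798. All 3 DMEM libraries exceeded all 3 DM libraries in 10 members, against 30.4% of tested genes. They were below all 3 in 21, against 21.2%, and 7 overlapped. Members were chosen for high DM values, so these ratios are a description. The highest of the 6 group means was in DM for 22 members, in DMEM for 13 and in SFGM for 3. The lowest was in GM for 25, in SFDM for 11 and in SFB for 2.

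**Figure D4:**
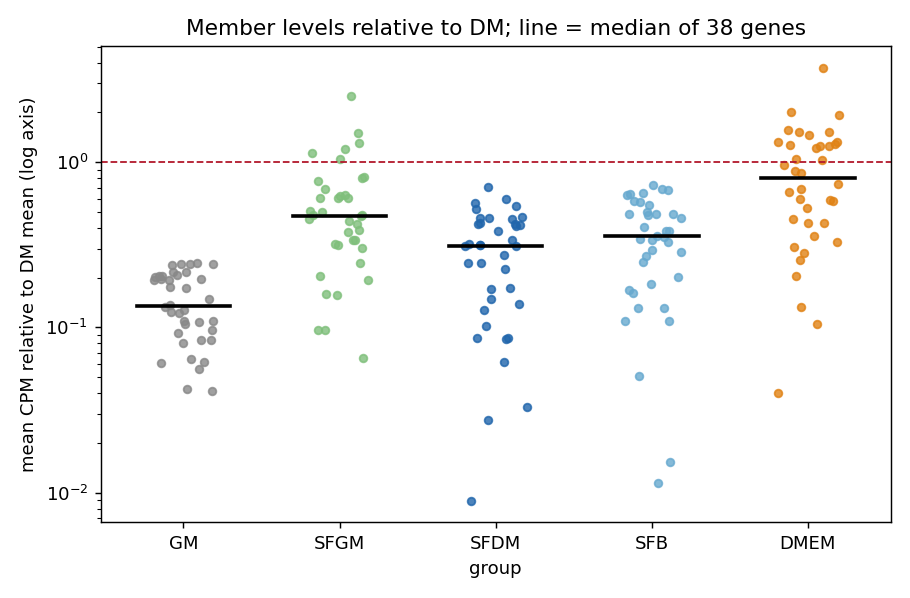
Mean CPM of each member in GM, SFGM, SFDM, SFB and DMEM divided by its DM mean, on a log axis; points are the 38 members, lines their medians, and the dashed line marks the DM level. The DMEM points straddle the DM level with a median of 0.798, and every SFDM and SFB point lies below it.

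High levels in DM alone were found in a minority. In 10 members all 4 serum-free groups had means under 0.5 times DM, and in 3 under 0.25 times. These 3 were ENSBTAG00000015402 and the members at ranks 15 and 33. Rank 33 had 14.9, 14.1 and 20.4 CPM in DM, 0.954, 0.814 and 1.43 in GM and 1.65, 1.78 and 1.30 in SFGM. In SFDM it had 0.681, 0.538 and 0.416 CPM, in SFB 0.811, 0.366 and 1.33, and in DMEM 1.07, 0.478 and 0.423. Its SFGM libraries lay above all SFDM and DMEM libraries and overlapped those of SFB, and no serum-free library reached 2 CPM. Its fall from SFGM in DMEM passed the test (log2 fold change -1.16, SE 0.386, edgeR adjusted p = 0.0149). Rank 14 had 118.8, 119.6 and 114.2 CPM in DM, 49.2, 51.1 and 47.8 in SFGM and 24.2, 23.9 and 23.6 in DMEM, a fall from SFGM in DMEM that passed the test (log2 fold change -0.98, edgeR adjusted p = 1.78e-10).

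As a share of the library, the 38 members together held 1202 ± 22.7 CPM in GM and 10999 ± 561 in DM, 5199 ± 115 in SFGM, 2554 ± 96.9 in SFDM, 3042 ± 76.8 in SFB and 11162 ± 450.0 in DMEM (SD, n = 3). The most abundant member gave 5868 ± 345 CPM of the DM sum and 5171 ± 196 of the DMEM sum. Without it the sums were 561 ± 2.50 CPM in GM, 5131 ± 323 in DM, 4272 ± 73.6 in SFGM, 2058 ± 101 in SFDM, 2270 ± 98.1 in SFB and 5991 ± 276 in DMEM. DM and DMEM libraries overlapped in the first sum and not in the second, where all 3 DMEM libraries were higher. Few genes weigh heavily in the second sum: rank 2 had means of 1102 CPM in DM and 1667 in DMEM, and rank 7 had 311 and 625. The DMEM mean was below the DM mean in 22 of the 38 members and above it in 16.

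Members varied in how tightly their replicates lay. The median coefficient of variation over members was 9.19% in GM, 9.91% in DM, 5.54% in SFGM, 11.3% in SFDM, 13.0% in SFB and 12.1% in DMEM. The widest was 57.7% at rank 33 in SFB, where levels were near 1 CPM. Rank 4 showed replicate C apart at high level, with 394, 472 and 247 CPM in DM, 218, 225 and 113 in SFB and 278, 397 and 465 in DMEM. Its C library was the lowest in DM and SFB and the highest in DMEM, and DMEM was above SFB for it by a log2 fold change of 0.99 (SE 0.273, edgeR adjusted p = 0.00792).

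The course over the 6 groups was compared with that of other genes, as a description. The median member profile in log2(CPM + 1) was 3.46 in GM, 5.90 in DM, 4.39 in SFGM, 3.75 in SFDM, 4.17 in SFB and 5.26 in DMEM. Pearson's r of single members with it ran from 0.561 to 0.985, with a median of 0.818, and 5 members had r of at least 0.95. Among 12386 tested genes that were not members and had at least 1 CPM in GM, 29 had r of at least 0.95. The 4 nearest had r of 0.999, 0.993, 0.980 and 0.978, and 3 of these moved little, with DM to GM ratios of 1.37, 1.29 and 1.83. The other had a ratio of 4.62 and fell short of the rule with 8.60 CPM in DM.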

How the data were processed

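Reads from 18 stranded poly(A) libraries were aligned and counted by the authors with STAR 2.7 and featureCounts on bosTau9, per the submitters' processing notes. For the parameters, annotation release and strand setting the labels hold no entry, so overlapping, antisense or near-identical genes could share reads. The deposited values are counts, whole numbers of reads per Ensembl identifier. A table of RefSeq genes (ARS-UCD2.0) matched 0 identifiers, so symbol lists and marker lists were not analysed.

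Libraries of a group differed by chi-square values of 1.85 to 41.9 per degree of freedom and were counted separately. CPM are counts divided by column totals. Tests used R 4.3.3 and edgeR 4.0.16 on all 18 libraries: filterByExpr (minimum count 10, total 15; 14637 genes), TMM scaling, a quasi-likelihood fit of 6 group means and 5 two-sided contrasts, with Benjamini-Hochberg adjustment over all tested genes at 0.05. The code was tested on simulated data. Fold changes beside edgeR p-values come from this fit, and ratios of means from CPM. Contrasts between groups the rule used carry no test. Depth was 16162525 to 28589018 counts, and low counts limit members near 1 CPM.

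Members and lists were chosen with earlier results of these data known. The identifiers named are the 2 members with the largest DM to GM ratio and the 2 with the smallest SFDM to SFGM ratio, and the nearest profiles were ranked by Pearson's r. Alternatives were RLE scaling, totals, no or a stricter filter, DESeq2 1.42.0, only the compared groups, the replicate letter, and leaving out each library. A 2-fold limit was added after seeing the data.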

Additional observations from a re-analysis of the deposited data

Results flagged for a closer look

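Relative to the same SFGM libraries, 3 of the genes described singly went up in DMEM and down in SFB, with no overlap of libraries in either direction, and the difference between DMEM and SFB passed the edgeR test. The rule favours high SFGM values and so the falls in SFB. ENSBTAG00000015402 was also named for its low SFDM to SFGM ratio, which favours its fall further. For ENSBTAG00000011839 the log2 fold change of DMEM against SFB was 1.60 (edgeR adjusted p = 1.09e-09). For ENSBTAG00000015402 it was 2.72 (edgeR adjusted p = 2.3e-07). For the most abundant member it was 2.698 (edgeR adjusted p = 2.42e-15). Its fall in SFB against SFGM was small (log2 fold change -0.15, edgeR adjusted p = 0.0195), and that call was lost without SFB A (adjusted p = 0.0513), SFB B (0.0755), SFGM A (0.0895) or SFGM B (0.0939).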

How the results depend on the processing

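No member called in any of the 5 tested contrasts was called in the opposite direction under the alternatives run. With a limit of at least 2-fold, the members higher and lower became 20 and 0 in DMEM against SFB, 1 and 10 in SFB against SFGM, 11 and 1 in DMEM against SFGM, and 3 and 1 in SFB against SFDM. The single member lower in DMEM than in SFB became 0 with no expression filter, with only the compared groups, with the replicate block and with scaling by totals, and 0 to 1 on leaving out a library. Lower in DMEM than in SFDM became 1 with DESeq2 and with RLE scaling, and 0 to 1 on leaving out a library. Leaving out a library gave 3 to 5 members lower in DMEM than in SFGM and 2 to 5 lower in SFB than in SFDM. The cause of these shifts was not tested. The rule gave 61 members at 3 times GM and 21 at 6 times. With TMM-scaled CPM it gave 42, of which 36 were among the 38, and 35 to 40 on leaving out libraries.

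ENSBTAG00000011839 in SFB against SFDM, not called under any setting, had a log2 fold change of -0.0204 with DESeq2, -0.0205 with RLE scaling, -0.0131 with only the compared groups, and -0.0232 to 0.107 on leaving out a library. The fall of the most abundant member in SFB against SFGM was lost with only the compared groups (edgeR adjusted p = 0.107) and with the stricter filter (0.0743), and scaling by totals moved it from -0.15 to -0.26. Same-letter libraries did not all correlate above 0.1 in any tested contrast. For letters A, B and C, r was -0.381, -0.0219 and -0.590 between DMEM and SFB, 0.0934, 0.186 and 0.336 between SFGM and SFB, -0.127, 0.00203 and -0.324 between SFGM and DMEM, 0.280, 0.0265 and 0.412 between DMEM and SFDM, and -0.193, -0.0947 and -0.450 between SFB and SFDM. Of 6 libraries, 5 correlated best with their own letter between SFGM and SFB and between DMEM and SFDM, and 0 in each of the other 3 tested pairs of groups. Among pairs not tested, all letters had r above 0.1 only between GM and DM (0.131, 0.1835 and 0.426), GM and SFB (0.217, 0.147 and 0.438), and DM and SFB (0.166, 0.377 and 0.558). Between GM or DM and DMEM or SFDM, r was negative for every letter, so same-letter libraries were not unrelated. With the replicate block 33 members were higher in DMEM than in SFB, as without it, and over all genes 5706 were called against 5982. With it 4 members were higher and 23 lower in SFB against SFGM, 25 and 5 in DMEM against SFGM, 34 and 0 in DMEM against SFDM, and 14 and 2 in SFB against SFDM.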
